A study of Homo sapiens with 6 samples.

Results

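The septins are a family of GTP-binding cytoskeletal proteins, and 8 of its members, SEPTIN2, SEPTIN5, SEPTIN6, SEPTIN7, SEPTIN8, SEPTIN9, SEPTIN10 and SEPTIN11, are described here in A549 cells with and without knockdown of CEP20. The members were chosen by gene symbol, with earlier results of these data known. They are 8 of the 13 septin genes and 8 of the 60624 gene IDs in the table. The septin genes left out were low or at 0 TPM, so passing a filter on low values is not a separate result. All 8 passed the filter on low values that left 14778 genes for testing. The cells are A549, a long-used cell line from a human lung adenocarcinoma, which is a non-small cell lung cancer. The siCEP20 group (3 samples) received small interfering RNA (siRNA) against CEP20, the gene of a centrosomal, microtubule-binding protein, and the siCTR group (3 samples) received a control siRNA. The sample labels give 3 days of transfection for both. One label field names a plasmid transfection where the methods describe siRNA, the labels and the methods name different media, and which of the study's CEP20 siRNAs was sequenced is not given in the sources used here. All 6 samples are the same line, no untransfected sample was analysed here, and the labels do not say whether the samples of a group were separate cultures, so the p-values below measure the spread between these samples, which may be technical.

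Septins bind GTP and join side by side into rods that line up end to end as filaments, rings and gauzes on membranes, actin and microtubules. Human septins fall into 4 sequence groups named after SEPTIN2, SEPTIN3, SEPTIN6 and SEPTIN7, and septins of 1 group can take the same place in a rod. Hexamers hold septins of the SEPTIN2 and SEPTIN6 groups with SEPTIN7, and octamers hold SEPTIN9, of the SEPTIN3 group, as well. In dividing cells septins gather at the cleavage furrow and the midbody, and in epithelial cells they lie on microtubules and actin bundles and at the base of the primary cilium.

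What the members share in sequence is the GTP-binding site. The coding sequence of every member held a single in-frame match to the motif of a phosphate-binding loop (P-loop), a glycine, 4 further residues, then glycine, lysine and serine or threonine. The 36 bases of coding sequence around it are shown, in the order of the groups, from the canonical transcripts of GENCODE release 44, with the codons of the fixed residues in capitals.
SEPTIN2: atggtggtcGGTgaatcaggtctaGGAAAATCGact
SEPTIN5: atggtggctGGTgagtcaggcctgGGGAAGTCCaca
SEPTIN6: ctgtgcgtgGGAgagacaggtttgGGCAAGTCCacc
SEPTIN8: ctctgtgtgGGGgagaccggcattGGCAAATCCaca
SEPTIN10: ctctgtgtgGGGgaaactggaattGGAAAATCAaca
SEPTIN11: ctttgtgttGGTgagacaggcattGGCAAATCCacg
SEPTIN7: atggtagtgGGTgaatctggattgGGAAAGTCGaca
SEPTIN9: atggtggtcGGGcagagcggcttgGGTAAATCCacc
The motif started at codon 44 in SEPTIN2 and at codon 305 in SEPTIN9, whose coding sequence was the longest of the 8, at 1758 bases against 1083 in SEPTIN2, the shortest. Over the aligned coding bases, the 7 pairs of members within a group were 68.7% to 77.8% identical and the 21 pairs across groups 59.9% to 67.1%. The longest run of identical bases between the canonical transcripts of any pair was 26, so a read longer than that matches no 2 of them along its whole length.

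The deposited values are TPM, an abundance per unit of transcript length and per library, so levels of different genes can be set side by side. TPM holds no read counts, and how deeply each library was sequenced is unknown. Genes reaching 1 TPM numbered 14429 to 14600 in siCTR and 14851 to 14987 in siCEP20. CEP20 itself was at 29.2, 30.5 and 35.1 TPM in siCTR and at 16.2, 15.3 and 17.3 TPM in siCEP20, so the knockdown left 51.4% of the siCTR mean. Each gene was tested with limma on log2(TPM + 1), a scale that understates the change of low genes, with p-values adjusted over all tested genes. Over all tested genes the log2 fold change had a median of 0.13, which median-of-ratios scaling of the libraries brought to -0.01. Changes are therefore also given relative to that median or with the libraries scaled. All 8 markers of A549 or lung epithelial cells had a mean of at least 1 TPM. They summed to 8313 to 8590 TPM in siCTR and 9542 to 9814 TPM in siCEP20, but they did not move together. AKR1B10 (1056, 981 and 1027 TPM in siCTR, 894.5, 926.5 and 874 TPM in siCEP20) and AKR1C1 (229, 237 and 231 TPM, then 180, 178 and 195 TPM) were lower. KRT7, KRT8, KRT18, KRT19, CDH1 and EPCAM were higher in every siCEP20 library than in any siCTR library, with EPCAM at only 0.83 to 1.24 TPM in siCTR. Of the markers of other cells, 1 of 4 for blood cells (CD14), 1 of 6 for fibroblasts (COL1A1), 0 of 4 for endothelium and 4 of 4 for neurons reached it. The fibroblast markers summed to between 5.57 and 6.10 TPM in siCTR and between 17.8 and 20.2 TPM in siCEP20, with COL1A2 and DCN listed at 0 in every library. The neuronal markers (RBFOX3, SNAP25, SYT1 and TUBB3) summed to between 198 and 199.6 TPM in siCTR and between 256 and 278 TPM in siCEP20. The part of these markers in the septin results was not tested. In RNA from whole cultures, fewer cells with a transcript and less of it in each cell cannot be told apart.

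SEPTIN9 and SEPTIN6 were higher after CEP20 knockdown, SEPTIN11 and SEPTIN5 were higher with smaller fold changes, and no member passed as lower on the deposited scale. At an adjusted p under 0.05 (limma), 4 of the 8 members were higher and 0 lower, where 30.2% of all tested genes were higher and 13.2% lower. With a fold change over 1.5 as well, 2 of the 8, SEPTIN9 and SEPTIN6, were called higher and 0 of 8 called lower (under 0.67), beside 11.2% and 4.61% of all tested genes. Every siCEP20 value lay above every siCTR value for 5 members, SEPTIN5, SEPTIN6, SEPTIN8, SEPTIN9 and SEPTIN11, and below for 0, where 38.4% and 17.0% of all tested genes were so arranged. The median log2 fold change of the members was 0.29. With median-of-ratios scaling it was 0.14, 2 members (SEPTIN9 and SEPTIN6) were higher at an adjusted p under 0.05 and 1 (SEPTIN2) was lower, while 19.7% of all tested genes were higher and 21.8% lower.

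**Figure D1:**
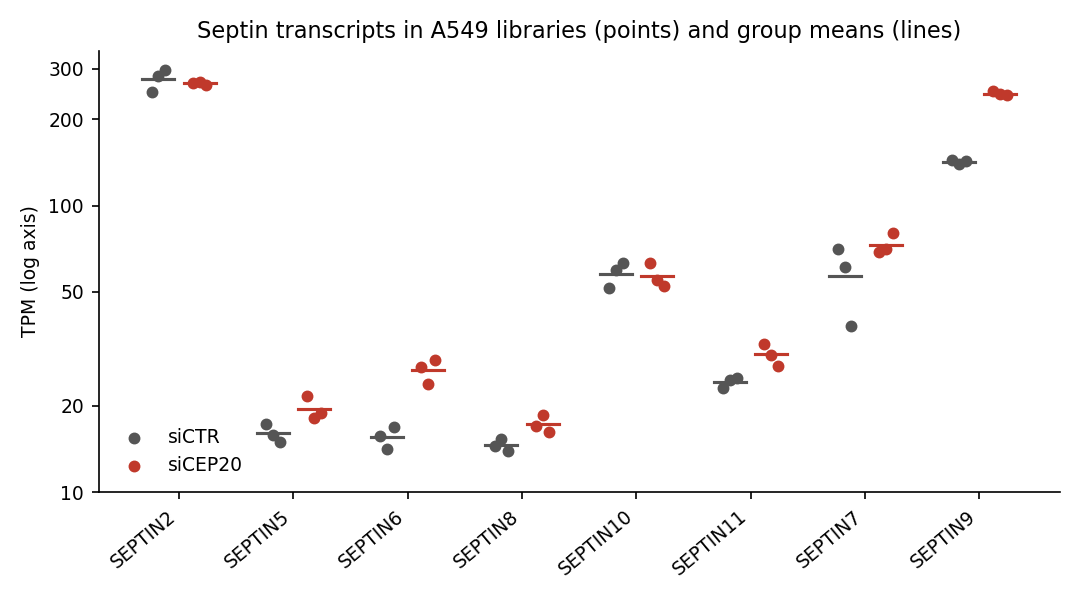
TPM (log axis) of each member in the 3 siCTR (grey) and 3 siCEP20 (red) libraries, ordered by septin group, with points for libraries and short lines for group means. SEPTIN9 and SEPTIN6 have the widest gaps between the groups, and siCTR replicate 3 lies far below the others for SEPTIN7.

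SEPTIN9 (ENSG00000184640), the member that turns hexamers into octamers and that also has a long N-terminal extension able to bind microtubules, occupies bases 77280569 to 77500596 of chromosome 17 (hg38, plus strand). It stood at 144, 140.0 and 143 TPM in siCTR and at 251, 244 and 242 TPM in siCEP20. The libraries of each group lay close together and the groups were far apart, with 142.5 ± 2.26 TPM in siCTR and 246 ± 4.67 TPM in siCEP20 (mean ± SD, n = 3 each). The ratio of the means was 1.73. The log2 fold change was 0.78 ± 0.05 (SE, adjusted p = 3.86e-05, limma), or 0.65 above the median of all tested genes. It was 0.63 with median-of-ratios scaling and 0.61 once each library was corrected for the length and GC content of the transcripts, and it stayed past the threshold under all 15 alternatives. GENCODE annotates 48 transcripts of SEPTIN9, with and without the long N-terminal part, and the gene-level TPM does not tell them apart.

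SEPTIN6 (ENSG00000125354), which gives its name to the group whose members sit next to SEPTIN7 in the rod, occupies bases 119615724 to 119693370 of chromosome X (hg38, minus strand). It stood at 15.7, 14.1 and 16.9 TPM in siCTR and at 27.3, 23.8 and 29.0 TPM in siCEP20. The groups did not overlap, and the ratio of the means, 1.72, was close to that of SEPTIN9 at a far lower level. The log2 fold change was 0.74 ± 0.10 (SE, adjusted p = 0.000808, limma), 0.61 above the median of all tested genes. It too was past the adjusted p threshold under all 15 alternatives, but after the length and GC correction its log2 fold change of 0.54 was under the fold needed for a call.

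The other members of the SEPTIN6 group, which can stand in for SEPTIN6 in the rod, had smaller log2 fold changes. SEPTIN11 (ENSG00000138758, chr4:76949751-77040384, plus strand) was at 23.2, 24.6 and 25.05 TPM in siCTR and at 32.9, 30.2 and 27.6 TPM in siCEP20. The groups did not overlap, but the third siCEP20 library was close to the siCTR range, and the log2 fold change of 0.30 ± 0.08 (SE) had an adjusted p of 0.0194 (limma). With median-of-ratios scaling it was 0.15 (adjusted p = 0.167), and SEPTIN11 passed the threshold under 9 of 15 alternatives. The pseudogene TXNP6, on the opposite strand within SEPTIN11, had a mean of 2.44 TPM. SEPTIN8 (ENSG00000164402, chr5:132750819-132807241, minus strand) was at 14.5, 15.4 and 13.9 TPM in siCTR and at 17.01, 18.5 and 16.2 TPM in siCEP20. Its groups did not overlap either, yet the log2 fold change of 0.23 ± 0.08 (SE) did not pass (adjusted p = 0.0607, limma), nor did it under any of the 15 alternatives. With median-of-ratios scaling it was 0.08 (adjusted p = 0.457, limma). SEPTIN10 (ENSG00000186522, chr2:109542799-109614143, minus strand) was at 51.4, 59.6 and 62.9 TPM in siCTR and at 63.2, 55.1 and 52.35 TPM in siCEP20. The 2 ranges for SEPTIN10 nearly coincided, with a log2 fold change of -0.03 ± 0.10 (SE, adjusted p = 0.851, limma) whose sign turned when either of 2 libraries was left out. That log2 fold change was -0.18 with median-of-ratios scaling (adjusted p = 0.149, limma).

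The SEPTIN2 group held the most abundant septin, which did not pass the test, and SEPTIN5, which passed it narrowly. SEPTIN2 (ENSG00000168385, chr2:241315100-241354027, plus strand), a septin of the cleavage furrow and the ciliary base, was at 248, 283 and 298 TPM in siCTR and at 267, 271 and 265 TPM in siCEP20. The siCEP20 values all lay within the siCTR range, and the log2 fold change was -0.04 ± 0.07 (SE, adjusted p = 0.658, limma). On this gene the result depended on scaling. Set against the all-gene median SEPTIN2 fell by 0.17 on the log2 scale, and it passed the threshold as lower with median-of-ratios scaling (-0.20, adjusted p = 0.0177) and after the length and GC correction (-0.21, adjusted p = 0.00792), though without the third siCTR library the unscaled value was 0.01. SEPTIN2 overlaps HDLBP, the gene of the RNA-binding protein vigilin, which lies on the opposite strand. HDLBP was at 329, 366 and 332 TPM in siCTR and at 490.2, 517 and 418 TPM in siCEP20 (log2 fold change 0.47, adjusted p = 0.00299, limma). The methods describe stranded libraries, but whether the quantification used strand is not given in the sources used here, so the part of HDLBP reads in the SEPTIN2 value was not tested.

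SEPTIN5 (ENSG00000184702, chr22:19714503-19724224, plus strand), a septin best known from nerve terminals and platelets, where it lies on secretory vesicles, was at 17.2, 15.9 and 15.02 TPM in siCTR and at 21.6, 18.1 and 18.9 TPM in siCEP20. The groups did not overlap, and the log2 fold change of 0.27 ± 0.09 (SE) was just past the threshold (adjusted p = 0.0486, limma). It was 0.12 with median-of-ratios scaling (adjusted p = 0.417), and SEPTIN5 passed under 5 of 15 alternatives. An annotated readthrough gene on the same strand, ENSG00000284874, had a mean of 2.12 TPM.

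**Figure D2:**
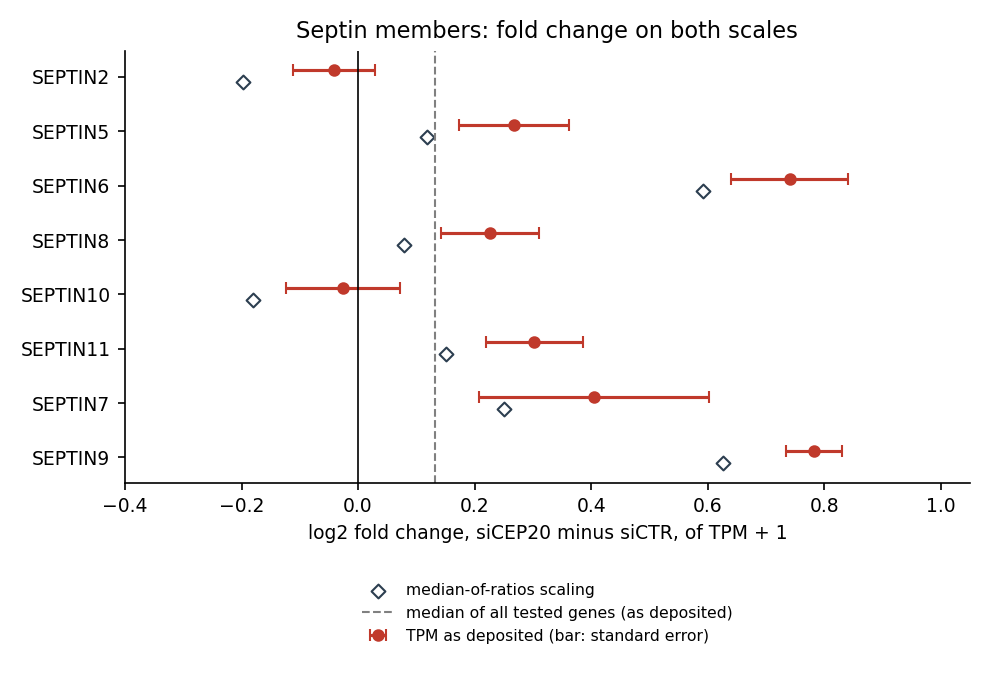
Log2 fold change (siCEP20 minus siCTR) of TPM + 1 for each member as deposited (red circles, bars are the standard error) and with median-of-ratios scaling (diamonds), with the median of all tested genes as a dashed line. The dashed line is the median on the deposited scale, 0.13, and the median with median-of-ratios scaling, -0.005, is not drawn. The circles of SEPTIN2 and SEPTIN10 lie left of the line and those of the other members right of it. Each diamond lies left of its circle and is not to be read against the line. SEPTIN9 and SEPTIN6 lie farthest right on both scales.

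SEPTIN7 (ENSG00000122545, chr7:35800932-35907110, plus strand), the only member of its group and a part of every hexamer and octamer, was at 70.5, 61.2 and 38.1 TPM in siCTR and at 68.8, 70.5 and 80 TPM in siCEP20. The third siCTR library was far below all the others, and the groups overlapped. The log2 fold change of 0.41 ± 0.20 (SE) had the largest error of the 8 members and did not pass (adjusted p = 0.131, limma). It fell to 0.15 (adjusted p = 0.254) without the third siCTR library, and it was 0.58 (adjusted p = 0.0479) without the first. With median-of-ratios scaling of all 6 libraries it was 0.25 (adjusted p = 0.400, limma). SEPTIN7 has many pseudogene copies, with 15 such gene IDs in the table. Of these, 4 (SEPTIN7P2, SEPTIN7P3, SEPTIN7P13 and SEPTIN7P14) had a mean of at least 1 TPM, and only these were aligned. Over their aligned bases these 4 were 95.6% to 96.3% identical to the SEPTIN7 transcript, with runs of 48 to 77 identical bases. How close they are is seen in a stretch that begins within the P-loop, at coding bases 172 to 216 of SEPTIN7. SEPTIN7P3 is left out, as its alignment did not cover that stretch without a gap. Bases that differ from SEPTIN7 are in capitals.
SEPTIN7: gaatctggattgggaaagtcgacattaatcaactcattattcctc
SEPTIN7P14: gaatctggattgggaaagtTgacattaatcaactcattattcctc
SEPTIN7P13: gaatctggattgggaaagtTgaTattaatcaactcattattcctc
SEPTIN7P2: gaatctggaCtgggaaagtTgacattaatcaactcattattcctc
All 15 pseudogene IDs together summed to 20.9, 26.8 and 25.8 TPM in siCTR and 23.97, 25.4 and 26.7 TPM in siCEP20. In the third siCTR library, where SEPTIN7 was low, their sum was within the range of the other libraries, so it came to 67.7% of the SEPTIN7 value there and to 29.65% to 43.8% in the other 5 libraries. How the authors' quantification divided reads between SEPTIN7 and these copies was not tested, and the SEPTIN7 level is uncertain to that extent. None of the 4 pseudogenes passed the threshold, with log2 fold changes from -0.22 to 0.06.

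The order of the levels was similar in both groups. In siCTR it ran SEPTIN2, SEPTIN9, SEPTIN10, SEPTIN7, SEPTIN11, SEPTIN5, SEPTIN6 and SEPTIN8, and the neighbours SEPTIN10 and SEPTIN7, SEPTIN5 and SEPTIN6, and SEPTIN6 and SEPTIN8 overlapped in range. In siCEP20 it ran SEPTIN2, SEPTIN9, SEPTIN7, SEPTIN10, SEPTIN11, SEPTIN6, SEPTIN5 and SEPTIN8, with overlaps between SEPTIN11 and SEPTIN6 and between SEPTIN5 and SEPTIN8. SEPTIN6 thus went from the seventh place to the sixth, above SEPTIN5 in all 3 siCEP20 libraries. SEPTIN2 remained the highest, but SEPTIN9 drew near to it, with 242 to 251 TPM against 265 to 271 TPM in siCEP20.

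The summed TPM of the 8 members was 585, 614 and 612.5 in siCTR and 749, 731 and 731 in siCEP20, higher in each siCEP20 library than in any siCTR library. The difference of the means was 133.5 TPM as deposited and 60.8 TPM with median-of-ratios scaling (two-sided exact permutation test over the 6 samples, p = 0.1 on both scales, the smallest that 3 against 3 allows, so this design cannot reach 0.05). Of that sum, SEPTIN9 made up 24.7%, 22.8% and 23.4% in siCTR and 33.5%, 33.4% and 33.15% in siCEP20. The share of the SEPTIN2 group went the other way, from 45.4%, 48.7% and 51.05% to 38.6%, 39.5% and 38.8%. Shares are parts of a whole, so this fall is not separate from the rise of SEPTIN9. The mean level of SEPTIN2 was 276 TPM in siCTR and 268 TPM in siCEP20. For both shares the groups did not overlap (exact permutation p = 0.1, adjusted over the 4 septin groups 0.2). Shares within a library do not change when the whole library is multiplied by a single factor, as in median-of-ratios scaling. Quantile normalization and the length and GC correction shift genes of a library unequally, and the shares were not recomputed with them. The SEPTIN6 group held 17.9% to 19.4% in siCTR and 17.1% to 18.7% in siCEP20 and overlapped (exact permutation p = 0.3). Within that group, the rise of SEPTIN6 stood beside a level of SEPTIN10, the most abundant of the 4, that did not move beyond its spread. SEPTIN7 held 12.05%, 9.97% and 6.22% in siCTR and 9.18%, 9.64% and 10.9% in siCEP20 (exact permutation p = 0.9), and the low value is again the third siCTR library. Since SEPTIN9 is in octamers only and SEPTIN7 in both rods, the log2 ratio of their TPM was also compared. It was 1.035, 1.19 and 1.91 in siCTR and 1.87, 1.79 and 1.599 in siCEP20, with overlap (exact permutation p = 0.4). The difference of 0.37 was 0.49 with the SEPTIN7 pseudogenes added to SEPTIN7 (exact permutation p = 0.1, the smallest possible), 0.64 without siCTR replicate 3 and 0.20 without siCTR replicate 1. The values are of transcripts, and no protein or filament was measured here.

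**Figure D3:**
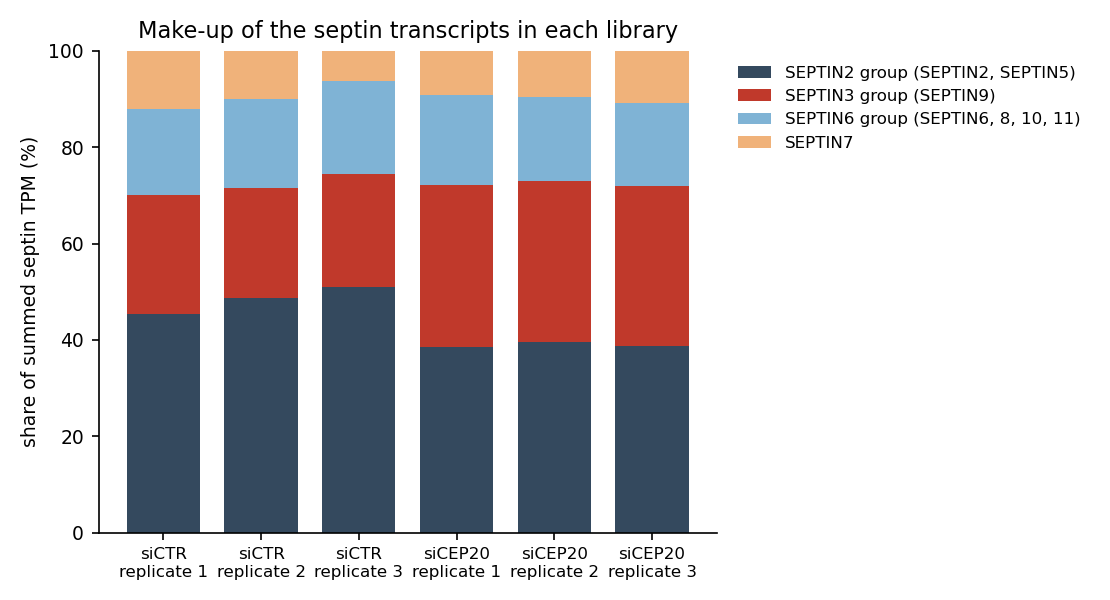
Share of each septin group in the summed TPM of the 8 members, in percent, for each of the 6 libraries as stacked bars. The SEPTIN3 group, here SEPTIN9 alone, takes 22.8% to 24.7% in siCTR and 33.15% to 33.5% in siCEP20, and the SEPTIN2 group is correspondingly smaller.

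The 5 remaining septin genes were at or near the limit of the table. SEPTIN1, of the SEPTIN2 group, was at 1.59, 1.61 and 1.87 TPM in siCTR and at 1.48, 1.56 and 2.64 TPM in siCEP20 (adjusted p = 0.748, limma). SEPTIN4, of the same group, was at 0.99, 0.48 and 2.02 TPM and at 1.24, 2.40 and 2.22 TPM (adjusted p = 0.204, limma). Both overlapped between the groups. SEPTIN3, a brain septin, had a mean under 1 TPM and was not tested with limma, at 0.89, 0.91 and 1.46 TPM in siCTR and 0.64, 0.88 and 0.62 TPM in siCEP20, and SEPTIN12, known from sperm, was listed at 0 in all siCTR libraries and at 0.37, 0 and 0.21 TPM in siCEP20. SEPTIN14 was listed at 0 in all 6.

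Septins are recruited and bundled by the BORG proteins (CDC42EP1 to CDC42EP5), effectors that answer to the small GTPases CDC42 and RHOQ (TC10). Of 7 such genes 6 were tested, and 3 passed an adjusted p under 0.05 as higher and 0 as lower, where 30.2% and 13.2% of all tested genes did. Their median log2 fold change was 0.27, or 0.14 above that of all tested genes. RHOQ was at 91.4, 106 and 109.7 TPM in siCTR and at 181.5, 194 and 220.4 TPM in siCEP20, with no overlap (log2 fold change 0.95 ± 0.09 SE, adjusted p = 0.000194, limma). CDC42EP3 was at 8.77, 8.97 and 11.7 TPM and at 18.6, 18.85 and 15.6 TPM (0.80 ± 0.13 SE, adjusted p = 0.00167, limma). These 2 were called higher, where 11.2% of all tested genes were called higher and 4.61% lower. Both stayed past the adjusted p threshold with each of the 3 other scalings (median of ratios, quantile, and length and GC), whereas CDC42EP1 (0.47, adjusted p = 0.0102) lost it with median-of-ratios scaling (adjusted p = 0.0594). CDC42 itself was not past it as deposited (0.06, adjusted p = 0.558) but passed as lower after the length and GC correction (-0.22, adjusted p = 0.0171), so its direction depended on the scaling. Not past it as deposited either were CDC42EP2 (0.07) and CDC42EP4 (0.06), and CDC42EP5 was under the filter.

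The list of the cytokinetic ring and midbody, where septins and the scaffold anillin meet actomyosin and the abscission machinery, had 29 genes, all tested. At an adjusted p under 0.05, 21 of the 29 were higher and 4 lower, beside 30.2% and 13.2% of all tested genes. With the fold change as well, 5 were called higher and 1 lower, beside 11.2% and 4.61% of all tested genes. The median was 0.33, 0.20 above that of all tested genes. With median-of-ratios scaling 11 were higher and 5 lower, beside 19.7% and 21.8% of all tested genes. The higher count was 14 with no filter and 15 to 18 with 1 library left out. The 3 with the smallest adjusted p were MYL6, a myosin light chain, which fell from 1469, 1399 and 1407 TPM to 888, 957 and 874 TPM (-0.65 ± 0.05 SE, adjusted p = 7.42e-05, limma), SVIL, which encodes supervillin, an actin- and myosin-binding protein (0.89 ± 0.08 SE, adjusted p = 0.000123), and CHMP4B, a subunit of the ESCRT-III filaments that cut the midbody (0.63 ± 0.06 SE, adjusted p = 0.000174). Named after their values were seen, the other 3 called higher were CEP55 (0.64), ANLN, which encodes anillin (0.59), and ROCK2 (0.59), and each stayed past the adjusted p threshold with the 3 other scalings. The 4 lower genes of this list were its 4 myosin light chains, also singled out after their values were seen. MYL9 (-0.49), MYL12A (-0.18) and MYL12B (-0.18) were lower beside MYL6, and all 4 stayed lower at an adjusted p under 0.05 with the 3 other scalings. The lower count of the list was 2 in place of 4 with no filter, with eBayes without a trend, and without siCTR replicate 2, siCTR replicate 3 or siCEP20 replicate 1. The 3 myosin heavy chains of the list, MYH9 (0.53), MYH10 (0.33) and MYH14 (0.38), were higher on the deposited scale, but only MYH9 passed with each of the 3 other scalings.

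The exocyst, the vesicle-tethering complex with which septins copurify, was close to the other genes. Of its 9 subunits 3 passed as higher, EXOC4 (0.43, adjusted p = 0.00121, limma), EXOC2 (0.33) and EXOC6B (0.30), and 0 as lower, beside 30.2% and 13.2% of all tested genes. With the fold change as well, 0 were called higher and 0 lower, beside 11.2% and 4.61% of all tested genes. Its median log2 fold change was 0.10, or -0.03 with the all-gene median subtracted, and only EXOC4 passed as higher with each of the 3 other scalings. Named after their values were seen, EXOC8 passed as lower with quantile normalization (-0.36, adjusted p = 0.0352) and EXOC8 (-0.39, adjusted p = 0.0221) and EXOC5 (-0.45, adjusted p = 0.0144) did so after the length and GC correction.

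**Figure D4:**
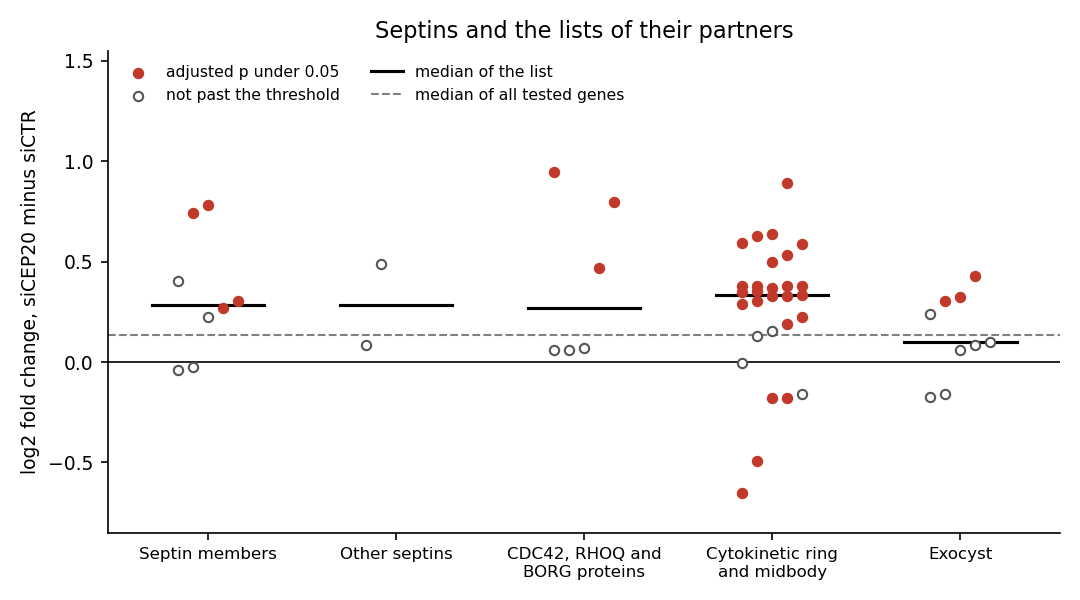
Log2 fold change (siCEP20 minus siCTR, deposited scale) of each tested gene in the septin members, the remaining septins and the partner lists, filled red where the adjusted p (limma) was under 0.05, with a black line at each list's median and a dashed line at the median of all tested genes, 0.13. The exocyst lies around that median, and the cytokinetic list spans -0.65 (MYL6) to 0.89 (SVIL).

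The genes whose log2(TPM + 1) followed that of SEPTIN9 most closely over the 6 libraries were H2BC18 (Pearson r = 0.9996), TDRD3 (0.9994) and ZKSCAN1 (0.9991). This is a description of 6 values in 2 groups that share the knockdown, and 1636 tested genes had an r over 0.95.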

How the data were processed

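RNA-seq of 3 siCEP20 and 3 siCTR samples of A549 cells was used, grouped by the sample labels. The authors trimmed reads with fastp (0.20.1), aligned them to hg38 with HISAT2 (2.1.0), quantified transcripts with StringTie (2.0) and deposited TPM per Ensembl gene in a single table. Their annotation release is not given in the sources used here. The authors tested counts with DESeq2, which TPM does not allow. All table columns were mapped to samples by name. TPM keeps no depth, so precision rests on the 3 replicates.

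GENCODE 44 (hg38) named 60370 of 60624 IDs and gave positions and coding sequences. Log2(TPM + 1) was compared with limma 3.58.1 (R 4.3.3, eBayes with a trend, no covariates) for genes averaging 1 TPM or more, with Benjamini-Hochberg adjustment. As in the study, a call needed an adjusted p under 0.05 and a fold change outside 0.67 to 1.5. Sums, shares and ratios were compared by two-sided exact permutation over samples (scipy 1.17.1). To correct for transcript length and GC content, a loess fit (span 0.5) was removed from each library. The main limma fit was tested on simulated data, with changes larger than that of any member.

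Named were all members, CEP20, the other septins, septin pseudogenes and antisense or readthrough genes averaging 1 TPM or more, the 3 genes of each list with the smallest adjusted p, BORG family members, and the 3 genes most like the member with the largest change. The members and lists were chosen with earlier results of these data known. Alternatives tried were 3 scalings, a pseudocount of 0.1, no filter, a filter at 5 TPM, a replicate block, eBayes with no trend, protein-coding genes only, another fold threshold, all septin genes or SEPTIN7 pseudogenes in the sums, and each library left out. One further list of partners is not reported here. Protein, imaging and tumor data were not analysed here.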

Additional observations from a re-analysis of the deposited data

How the results depend on the processing

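SEPTIN9 and SEPTIN6 were higher at an adjusted p under 0.05 (limma) under all 15 alternatives. The 4 members higher became 2 with median-of-ratios scaling, quantile normalization or the length and GC correction, and 2 to 4 with 1 library left out (2 without siCEP20 replicate 1 or without siCEP20 replicate 2). The 0 lower became 1 (SEPTIN2) with median-of-ratios scaling and with the length and GC correction. Of all tested genes, 19.7% were higher with median-of-ratios scaling, 21.4% with quantile normalization and 19.9% with the length and GC correction. In the same order, 21.8%, 19.9% and 21.3% were lower. The 2 called higher became 1 (SEPTIN9) with that correction and 0 at a fold of 2. The cause of these changes was not tested. Signs turned for SEPTIN2 (-0.117 to 0.0139 with 1 library left out, positive without siCTR replicate 3), SEPTIN10 (-0.109 to 0.0341, positive without siCTR replicate 3 at 0.0341 or siCEP20 replicate 3 at 0.0306), and SEPTIN1 with median-of-ratios scaling (-0.0161), quantile normalization (-0.0500) or 1 library left out (-0.0926 without siCEP20 replicate 3, to 0.183), none past the threshold in those settings. List medians on the log2 scale moved with median-of-ratios scaling, quantile normalization and the length and GC correction to 0.18, 0.22 and 0.16 (cytokinetic ring) and to -0.0551, 0.0092 and -0.0330 (exocyst). That of the BORG list was 0.12 with median-of-ratios scaling and 0.0687 with no filter. The difference in the SEPTIN7 share, 0.51 percentage points, became -0.0284 with the pseudogenes added and ranged from -1.09 (without siCTR replicate 3) to 1.82 with 1 library left out, being -0.0043 without siCEP20 replicate 3. The deviations of same-numbered libraries from their group means had correlations of 0.157, -0.061 and -0.062. Those of differently numbered libraries ran from -0.121 to 0.17. With 3 libraries in each group this cannot decide whether the numbers pair the samples, and the labels do not say. With the replicate number as a block, 4 members were again higher and 2 called, and the adjusted p of SEPTIN9 was 0.000433. Paired permutation cannot go below 0.25. The depth behind each TPM is unknown.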
